A study of Mus musculus with 14 samples.

Results

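Genes of regulatory T cells and of the receptors that restrain or support T cells were followed across aorta and liver: Foxp3, Ikzf2, Il2ra, Ctla4, Pdcd1, Lag3, Tigit, Havcr2, Icos and Tnfrsf18. They were taken by name, as every feature of the count tables whose name, without its suffix, is one of these 10, and each matched 1 feature of the 24732 in each tissue. The study profiled RNA from the aorta and liver of BT3xHuBL and HuBL mice kept on normal laboratory diet for 52 weeks. There were 3 BT3xHuBL aortas, 3 HuBL aortas, 4 BT3xHuBL livers and 4 HuBL livers. The labels do not spell out the strains or the age and sex of the animals. From what is known of these strains outside the labels, HuBL stands for a human APOB transgene on a background without the low-density lipoprotein receptor, which both genotypes share, and BT lines add a T cell receptor transgene specific for apolipoprotein B. The comparison asks how the added receptor goes with transcripts of regulatory and inhibited T cells in each tissue.

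Regulatory T cells hold immune responses in check. They are defined by the transcription factor FOXP3, carry the high-affinity interleukin-2 receptor chain CD25 (Il2ra) and use CTLA-4 to remove costimulatory ligands from antigen-presenting cells. PD-1, LAG-3, TIGIT and TIM-3 are inhibitory receptors that appear on activated T cells and stay high when antigen persists, while ICOS and GITR (Tnfrsf18) are costimulatory receptors. Several of them are not limited to T cells: TIM-3 (Havcr2) is also made by macrophages and dendritic cells, and LAG-3 by natural killer cells.

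Depth was 41933263 to 65539765 counts in the aortas and 13228123 to 17992459 in the livers, so that a transcript needed a higher abundance in liver to be counted at all. The library kit reads transcripts near their 3′ ends, and levels are given as CPM, counts scaled to a fixed library total with no correction for gene length. Whether each library is a separate animal is not in the labels, and p-values therefore measure a spread between libraries that may be technical. The labels also do not name the segments of the transgenic receptor, and the genotype labels could not be checked on them. The tissue labels matched their marker transcripts: 4 smooth muscle genes summed to 11224 to 15254 CPM in BT3xHuBL aortas and 12236 to 14344 CPM in HuBL aortas, against 9.85 to 17.3 and 15.4 to 35.4 CPM in the livers of these genotypes. The 5 hepatocyte genes summed to 101194 to 132552 CPM in BT3xHuBL livers and 109152 to 135390 CPM in HuBL livers, and to at most 0.791 CPM in any aorta.

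**Figure D1:**
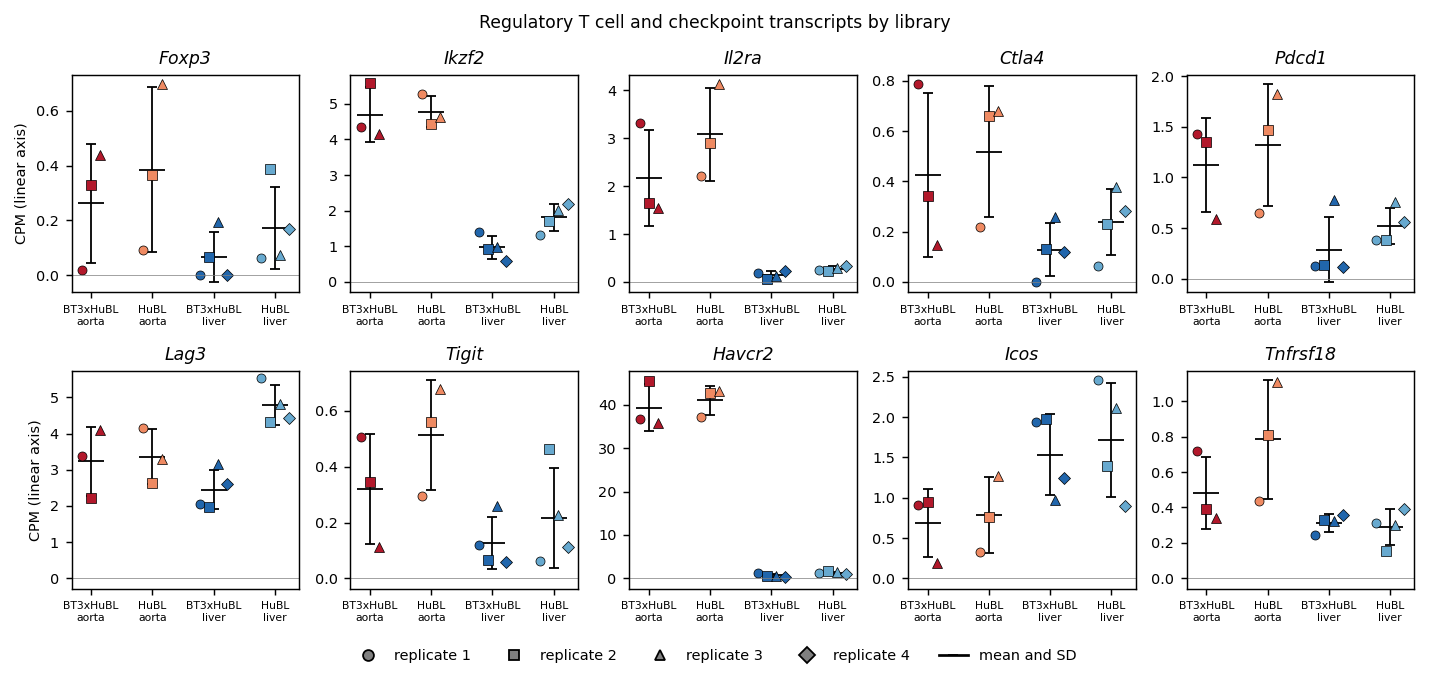
Level of each of the 10 transcripts in each library, in CPM scaled within each tissue, on linear axes that differ between panels. Points are libraries, with a symbol for each replicate number; bars are the mean and SD of a group (n = 3 for aorta, n = 4 for liver). Every BT3xHuBL liver lies below every HuBL liver for Lag3 alone, and for no transcript are the aortas of the genotypes apart.

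In the aorta none of the 10 transcripts differed between the genotypes beyond the spread of the libraries. All 10 were measured well enough to be tested, and 0 passed edgeR's quasi-likelihood F-test at a Benjamini-Hochberg adjusted p of 0.05, where 0.026% of 15400 tested features did. None of the 10 reached an unadjusted p of 0.05 in edgeR, DESeq2 or limma-voom, against 4.08% of all features in edgeR, and adjusted p was 1 for each in edgeR. All 10 log2 fold changes were below 0, with a median of −0.26, where 51.5% of all features were below 0 and their median was −0.004. No transcript had its genotypes apart, where 9.27% of all features did. The 10 are read from the same libraries, so their common sign is not 10 separate results, and it did not hold in every subset of libraries. Without BT3xHuBL replicate 3 it held for 5 of 10 (median −0.13), without HuBL replicate 3 for 7 (−0.03) and without HuBL replicate 1 for 8 (−0.62). In bulk RNA, fewer cells of a type and less RNA per cell cannot be told apart.

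Foxp3, which lies on chromosome X from 7573644 to 7595245 on the plus strand (GENCODE M21, GRCm38), had the largest standard error of the set in aorta. It had 1, 22 and 27 counts in the BT3xHuBL aortas and 6, 15 and 44 counts in the HuBL aortas, which is 0.262 ± 0.219 CPM in BT3xHuBL and 0.385 ± 0.302 CPM in HuBL (SD, n = 3 each). Replicate 1 was the lowest of its group in both genotypes, and the groups overlapped. The log2 fold change was −0.55 (SE 0.95), and it was 0.24 without HuBL replicate 3. Foxp3 overlaps 4 other annotated genes, among them Ccdc22 and Ppp1r3f on the opposite strand, and its feature carries the authors' overlap mark. The sources used here do not give the strand setting of the counting, so reads of these genes could not be told apart. Ikzf2, which encodes the transcription factor Helios of thymus-derived regulatory T cells, lies on chromosome 1 from 69531214 to 69687245. It was steady in the aorta, at 4.35, 5.57 and 4.14 CPM in BT3xHuBL and 5.28, 4.43 and 4.63 CPM in HuBL, with a log2 fold change of −0.03 (SE 0.19). Its means of 4.69 CPM in BT3xHuBL and 4.78 CPM in HuBL aortas were far above those of Foxp3. The cells that made Ikzf2 were not tested, so its level cannot be read as one of regulatory T cells.

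Il2ra, on chromosome 2 from 11642807 to 11693193, had 3.32, 1.66 and 1.54 CPM in BT3xHuBL aortas and 2.22, 2.91 and 4.13 CPM in HuBL aortas. BT3xHuBL replicates 2 and 3 lay below every HuBL library and replicate 1 lay within their range. The log2 fold change was −0.51 (SE 0.35) and reached −0.94 without BT3xHuBL replicate 1. Tnfrsf18, the costimulatory receptor GITR, on chromosome 4 from 156026164 to 156028895, had 0.716, 0.389 and 0.341 CPM in BT3xHuBL aortas against 0.435, 0.807 and 1.11 CPM in HuBL aortas, a log2 fold change of −0.70 (SE 0.53). These receptors had the same pattern of libraries, with BT3xHuBL replicate 1 above the other two BT3xHuBL aortas and HuBL replicate 3 above the other two HuBL aortas.

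Among the inhibitory receptors, Tigit, on chromosome 16 from 43648867 to 43664146, had 29, 23 and 7 counts in BT3xHuBL aortas and 19, 23 and 43 counts in HuBL aortas. Its log2 fold change was −0.67 (SE 0.65). Ctla4, on chromosome 1 from 60887000 to 60915832, had 45, 23 and 9 counts in BT3xHuBL and 14, 27 and 43 counts in HuBL, with a log2 fold change of −0.28 (SE 0.70). For both genes the libraries of a genotype spanned more than the distance between the genotypes. Pdcd1, which encodes PD-1 and lies on chromosome 1 from 94038305 to 94052553, had 1.43, 1.35 and 0.585 CPM in BT3xHuBL aortas and 0.652, 1.47 and 1.83 CPM in HuBL aortas, a log2 fold change of −0.23 (SE 0.47). Icos, a costimulatory receptor whose gene follows Ctla4 on chromosome 1 from 60977927 to 61000320, had 0.908, 0.943 and 0.195 CPM in BT3xHuBL and 0.326, 0.758 and 1.27 CPM in HuBL. Its log2 fold change was −0.20 (SE 0.66); leaving out HuBL replicate 3 gave 0.36, and leaving out BT3xHuBL replicate 3 gave 0.24.

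Havcr2 and Lag3 were measured with the least spread among the receptors. Havcr2, on chromosome 11 from 46454935 to 46481255, had 36.7, 45.5 and 35.7 CPM in BT3xHuBL aortas and 37.1, 42.7 and 43.1 CPM in HuBL aortas. Its log2 fold change was −0.06 (SE 0.11), and the libraries of the genotypes interleaved. Transcripts of 9 macrophage and dendritic cell genes summed to 4937 to 7112 CPM in BT3xHuBL aortas and 5898 to 6884 CPM in HuBL aortas. The part of these cells, which also make TIM-3, in the level of Havcr2 was not tested. Lag3, on chromosome 6 from 124904361 to 124911705, had 3.37, 2.21 and 4.11 CPM in BT3xHuBL and 4.16, 2.64 and 3.30 CPM in HuBL, with a log2 fold change of −0.06 (SE 0.27).

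Within the aorta, 6 of the transcripts varied together between libraries of a genotype. The pattern was measured as the deviation of log2(CPM + 0.1) from the mean of the genotype, over 6 libraries. Ctla4, Tigit, Pdcd1, Icos, Il2ra and Tnfrsf18 were correlated with each other in all 15 pairs (Pearson's r 0.71 to 0.98), and each with the summed CD3 chains Cd3d, Cd3e, Cd3g and Cd247 of the T cell receptor complex (r 0.83 to 0.99). Summed CD3 had 13.0, 8.68 and 5.67 CPM in BT3xHuBL aortas and 5.74, 10.6 and 9.38 CPM in HuBL aortas. The feature of Cd247 carries the authors' overlap mark, as that of Foxp3 does, so reads of overlapping genes may be in this sum. Havcr2 (r 0.40), Foxp3 (r −0.21), Ikzf2 (r −0.19) and Lag3 (r −0.55) did not follow CD3 to that degree, and Lag3 ran opposite to Havcr2 (r −0.93). The 6 transcripts were grouped by these same correlations, so high values in all 15 pairs are not a separate result. Havcr2, outside the group, had r 0.71 with Icos and 0.69 with Pdcd1, but 0.05 with Il2ra. All these correlations describe 6 libraries that share scaling, and centring within genotype leaves 4 degrees of freedom.

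**Figure D2:**
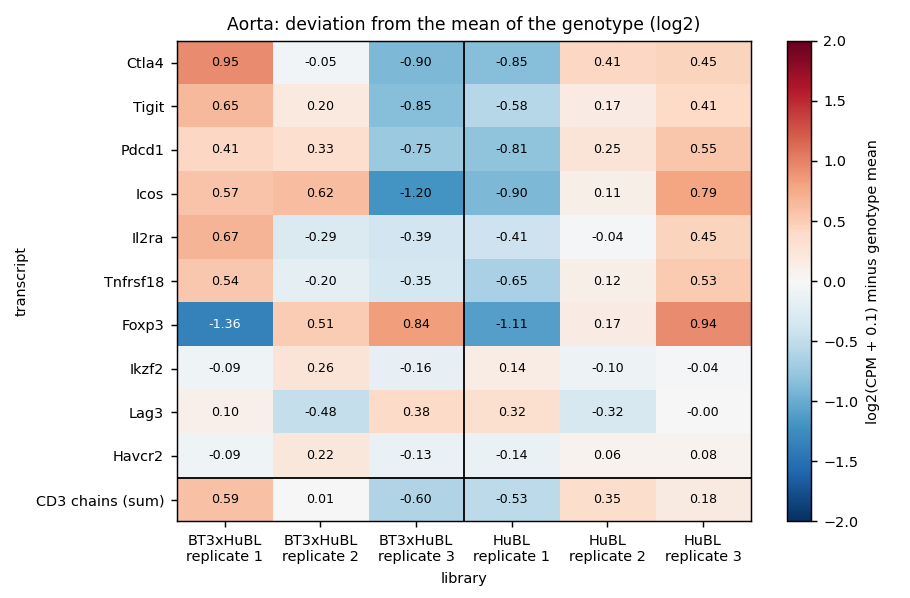
Deviation of each transcript from the mean of its genotype in the 6 aorta libraries, as log2(CPM + 0.1), with the summed CD3 chains in the bottom row; red is above and blue below the mean of the genotype. The top 6 rows are high in BT3xHuBL replicate 1 and low in BT3xHuBL replicate 3 and HuBL replicate 1, as the CD3 row is, while Foxp3 is lowest in BT3xHuBL replicate 1 (−1.36). That library held 1 Foxp3 count.

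BT3xHuBL replicate 3 held the lowest level of its group for 8 of the 10 transcripts, HuBL replicate 1 the lowest for 8 and HuBL replicate 3 the highest for 8. Lag3 had none of these 3 extremes: it was highest in BT3xHuBL replicate 3 (0.38) and in HuBL replicate 1 (0.32) and lowest in replicate 2 of both genotypes. Foxp3 kept the HuBL order, with deviations of −1.11, 0.17 and 0.94 in HuBL replicates 1 to 3, and ran the other way in BT3xHuBL. In BT3xHuBL replicate 1, where CD3 deviated by 0.59 and Ctla4 by 0.95, Foxp3 deviated by −1.36, and in BT3xHuBL replicate 3, where CD3 deviated by −0.60 and Ctla4 by −0.90, Foxp3 deviated by 0.84. The value of Foxp3 in BT3xHuBL replicate 1 rests on 1 count, so the size of its deviation depends on the 0.1 CPM added. Reads of overlapping genes may also be in the Foxp3 feature.

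The bases just before the start sites are shown for 3 genes that followed CD3 (Ctla4, Pdcd1, Tigit). They are also shown for Havcr2, which followed it less, and for Foxp3, which did not. Any part of these bases in the shared pattern was not tested. The sequences are the 250 bases upstream of the RefSeq start on the strand of the gene (RefSeq, GRCm38.p6), at chr1:60908775-60909024 (plus strand) for Ctla4, chr1:94052554-94052803 (minus) for Pdcd1, chr16:43664185-43664434 (minus) for Tigit, chr11:46454681-46454930 (plus) for Havcr2 and chrX:7580233-7580482 (plus) for Foxp3, the second of its 2 RefSeq starts. Capitals mark matches on either strand to GGAAA, the core letters bound by NFAT (a factor switched on by T cell receptor signalling), read as TTTCC on the other strand, to TGANTCA, the letters of AP-1, and to TTCNNNGAA, the letters of STAT factors.
Ctla4: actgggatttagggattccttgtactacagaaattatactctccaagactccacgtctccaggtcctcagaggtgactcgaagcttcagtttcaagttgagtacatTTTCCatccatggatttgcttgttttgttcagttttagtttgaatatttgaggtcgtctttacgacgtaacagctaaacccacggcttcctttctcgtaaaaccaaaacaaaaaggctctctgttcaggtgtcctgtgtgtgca
Pdcd1: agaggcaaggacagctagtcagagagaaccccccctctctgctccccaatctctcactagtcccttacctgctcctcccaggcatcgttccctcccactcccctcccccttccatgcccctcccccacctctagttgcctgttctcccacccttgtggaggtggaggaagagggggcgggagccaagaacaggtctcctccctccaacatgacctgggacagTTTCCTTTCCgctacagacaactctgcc
Tigit: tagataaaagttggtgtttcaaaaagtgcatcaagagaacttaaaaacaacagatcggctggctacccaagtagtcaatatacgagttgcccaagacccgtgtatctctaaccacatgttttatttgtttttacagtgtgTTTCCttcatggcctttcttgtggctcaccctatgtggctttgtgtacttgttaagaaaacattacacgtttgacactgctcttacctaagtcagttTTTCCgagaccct
Havcr2: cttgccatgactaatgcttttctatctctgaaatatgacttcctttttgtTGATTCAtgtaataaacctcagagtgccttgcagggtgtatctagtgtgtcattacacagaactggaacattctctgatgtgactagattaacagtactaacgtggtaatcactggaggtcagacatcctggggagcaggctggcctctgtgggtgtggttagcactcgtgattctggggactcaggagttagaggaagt
Foxp3: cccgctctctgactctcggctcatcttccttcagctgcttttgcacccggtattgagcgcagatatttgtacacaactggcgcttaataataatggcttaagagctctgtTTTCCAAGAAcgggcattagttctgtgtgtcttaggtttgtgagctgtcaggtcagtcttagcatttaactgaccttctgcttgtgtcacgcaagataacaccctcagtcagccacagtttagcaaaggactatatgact
GGAAA occurred 1 time upstream of Ctla4 and 2 times each upstream of Pdcd1 and Tigit, nearest to the start at 144, 23 and 13 bases before it. Foxp3, which did not follow CD3, had 1 GGAAA in each of its 2 windows, 140 bases before the start shown. Havcr2 had no GGAAA and 1 TGANTCA, 200 bases before the start. GGAAA is in 55.6% of 32851 windows of this length and TGANTCA in 6.75%, and TTCNNNGAA in 7.02%. TTCNNNGAA overlapped the GGAAA match of Foxp3 and was absent from the other 4 windows shown. Of the genes not printed, Il2ra had 1 GGAAA, and Tnfrsf18 had 2 GGAAA and 1 TTCNNNGAA; both followed CD3. A match is a run of letters and not a measured site. RefSeq windows were found for 7 of the 10 genes. Bases just after the RefSeq starts of Tigit and Il2ra were not found in GENCODE M21 transcripts of these genes.

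In the liver every BT3xHuBL library held less Lag3 than any HuBL library, at 0.514 times the HuBL level, and T cell transcripts gave lower values with it, although none passed the adjusted test of edgeR. Only 4 of the 10 (Lag3, Ikzf2, Havcr2 and Icos) had enough counts for the test across 12453 features, and all 4 were below 0, where 48.2% of features were, and their median was −0.89 on the log2 scale against 0.009 over all features. In edgeR's quasi-likelihood F-test (Benjamini-Hochberg adjusted) 0 of the 4 passed, and 0% of all features did. At an unadjusted p of 0.05, 3 of the 4 passed in edgeR, where 11.1% of all features did; limma-voom called none, and DESeq2 called 1 of them, Lag3, and 133 features in all. The low-count filter keeps a gene that reaches its minimum in as many libraries as 1 group holds, so these 4 are not the whole set and their common sign supports nothing by itself. The other 6 were too sparse for that test and are described by their counts.

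Lag3, an inhibitory receptor related to CD4 that binds MHC class II, had 34, 30, 49 and 44 counts in BT3xHuBL livers and 88, 56, 64 and 79 counts in HuBL livers. Scaled, this was 2.06, 1.98, 3.16 and 2.62 CPM in BT3xHuBL against 5.55, 4.32, 4.82 and 4.44 CPM in HuBL. Every BT3xHuBL liver was below every HuBL liver, which held for 3.58% of all features in this direction. edgeR put Lag3 at −0.96 on the log2 scale (SE 0.20; adjusted p = 0.206). DESeq2 gave a log2 fold change of −0.97 with adjusted p = 0.00781, and with any 1 library left out edgeR gave −1.10 to −0.87 with a smallest adjusted p of 0.16.

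Ikzf2 had 1.40, 0.925, 0.968 and 0.595 CPM in BT3xHuBL livers and 1.33, 1.7, 2.03 and 2.19 CPM in HuBL livers, a log2 fold change of −0.90 (SE 0.30, edgeR adjusted p = 0.344). BT3xHuBL replicate 1 was the library that overlapped, above HuBL replicate 1. Havcr2 had 1.27, 0.529, 0.645 and 0.357 CPM in BT3xHuBL against 1.14, 1.62, 1.43 and 1.07 CPM in HuBL, a log2 fold change of −0.88 (SE 0.38, edgeR adjusted p = 0.426), and again only BT3xHuBL replicate 1 reached into the HuBL range. Icos did not differ beyond its spread, with 1.94, 1.98, 0.968 and 1.25 CPM in BT3xHuBL livers and 2.46, 1.39, 2.11 and 0.900 CPM in HuBL livers, a log2 fold change of −0.15 (SE 0.36, edgeR adjusted p = 0.894). That of Icos was 0.09 at the highest with a library left out.

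The remaining 6 transcripts were near the limit of detection in liver, where 3 counts equal 0.167 to 0.227 CPM depending on the library. Foxp3 had 0, 1, 3 and 0 counts in BT3xHuBL livers and 1, 5, 1 and 3 counts in HuBL livers. Ctla4 had 0, 2, 4 and 2 counts in BT3xHuBL and 1, 3, 5 and 5 in HuBL, and Tigit had 2, 1, 4 and 1 counts in BT3xHuBL and 1, 6, 3 and 2 in HuBL. All 3 were at single digits in every liver. Il2ra had 3, 1, 2 and 4 counts in BT3xHuBL and 4, 3, 4 and 6 in HuBL, and Tnfrsf18 had 4, 5, 5 and 6 in BT3xHuBL and 5, 2, 4 and 7 in HuBL. Pdcd1 had 2, 2, 12 and 2 counts in BT3xHuBL livers against 6, 5, 10 and 10 in HuBL livers, and BT3xHuBL replicate 3 was above every HuBL liver while the other BT3xHuBL livers were below them all. The groups overlapped for all 6, and no difference was detectable at this depth. Fitted with no low-count filter, their log2 fold changes were −1.31 (SE 0.97) for Foxp3, −0.86 (SE 0.78) for Ctla4, −0.85 (SE 0.62) for Pdcd1, −0.83 (SE 0.60) for Il2ra, −0.68 (SE 0.77) for Tigit and 0.08 (SE 0.52) for Tnfrsf18.

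**Figure D3:**
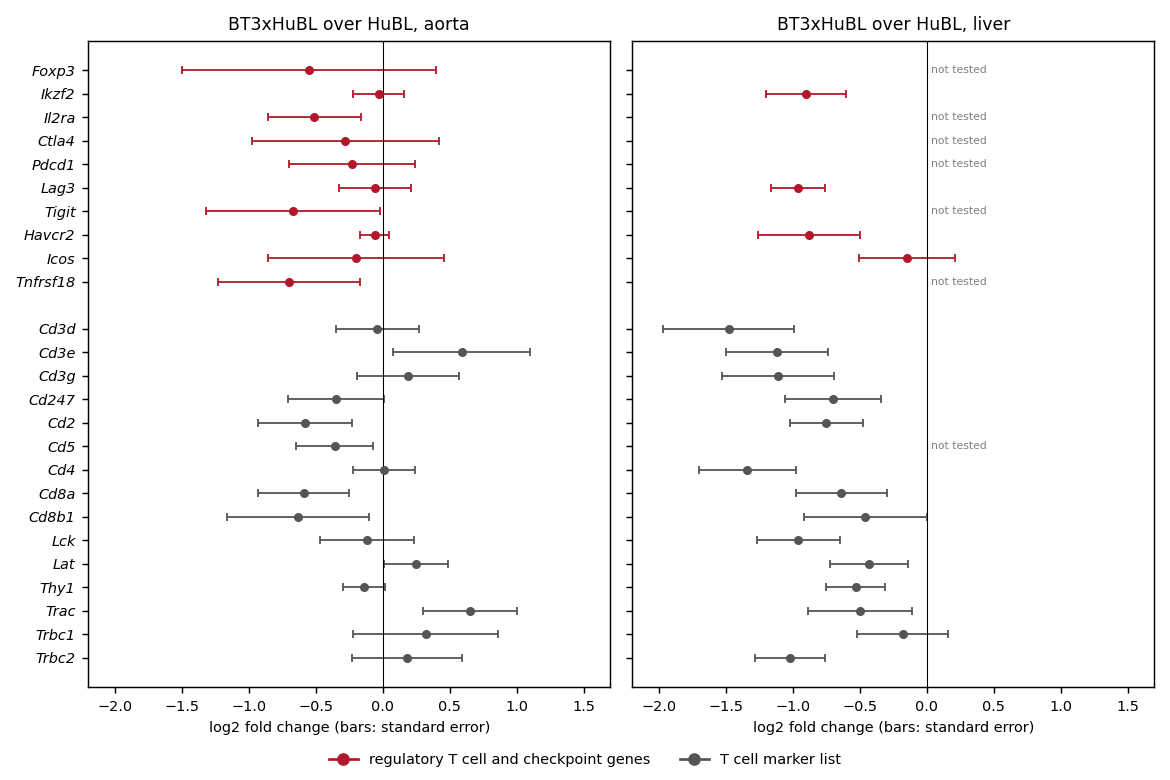
BT3xHuBL over HuBL log2 fold changes in aorta (left) and liver (right) from edgeR, with bars of 1 standard error; red marks the 10 regulatory T cell and checkpoint genes and grey the 15 T cell markers, and features that failed the low-count filter read "not tested". In liver every tested red and grey point is below 0, with Cd3d at −1.48 and Lag3 at −0.96, while in aorta the grey points lie on both sides of 0.

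T cell markers gave lower values along with Lag3 in the liver. Of 15 T cell genes 14 were tested, and all 14 were below 0 (median log2 fold change −0.73), where 48.2% of all features were. In edgeR 8 had an unadjusted p under 0.05, where 11.1% of all features did, and 0 passed the adjusted test. With limma-voom 0 were called, and DESeq2 called 1, Cd4. The low-count filter can keep a gene through 1 group alone, and these genes are read from the same libraries. Their common sign therefore supports nothing by itself. Cd4, the coreceptor of helper and regulatory T cells, averaged 1.21 ± 0.625 CPM in BT3xHuBL livers and 3.06 ± 0.551 CPM in HuBL livers (SD, n = 4 each). Every BT3xHuBL liver was below every HuBL liver for Cd4, as held for 3.58% of all features. Cd3d averaged 0.453 ± 0.296 CPM in BT3xHuBL and 1.28 ± 0.538 CPM in HuBL. The 15 genes summed to 13.7 to 20 CPM in BT3xHuBL livers and 21.7 to 43.1 CPM in HuBL livers, and none was at 0 throughout a group. Their part in the level of Lag3 was not tested, but each receptor was set against CD3 in the same library.

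Per 100 CD3 counts, Lag3 had 86.9 ± 28.7 counts in BT3xHuBL livers and 80.2 ± 26.1 in HuBL livers (SD, n = 4 each). The log2 ratio differed by 0.12 (two-sided exact permutation p = 0.8), so the separation of the genotypes seen in CPM was not seen per CD3 count. Likewise Ikzf2 had 33.6 ± 11.4 per 100 CD3 counts in BT3xHuBL livers and 31.7 ± 17.2 in HuBL livers (difference 0.18, exact p = 0.657), and Havcr2 24.2 ± 14.3 in BT3xHuBL livers and 21.8 ± 7.09 in HuBL livers (difference 0.09, exact p = 0.8). Icos, whose CPM was close in both genotypes, had 55.5 ± 21.3 per 100 CD3 counts in BT3xHuBL livers and 26.3 ± 5.97 in HuBL livers, a difference of 0.98 in log2. Its libraries ran from 23.8 to 69.6 in BT3xHuBL and from 22.4 to 35.1 in HuBL, so the groups overlapped, with exact permutation p = 0.0857. Summed CD3 was itself lower in BT3xHuBL livers, at 2.96 ± 0.841 CPM against 6.50 ± 2.32 CPM in HuBL livers. The ratio therefore offsets a drop in any transcript, whatever cells make it. Centred within genotype, levels in 8 livers had Pearson's r with CD3 of 0.37 (Lag3), 0.13 (Ikzf2), 0.34 (Havcr2), 0.45 (Icos) and 0.55 (Pdcd1). In all, 15 ratios were compared over both tissues, and 0 had an exact p under 0.05. The smallest p this design allows is 0.0286 with 4 livers a group and 0.1 with 3 aortas a group. Against the receptor constant chains Trac, Trbc1 and Trbc2 in place of CD3 the liver differences were −0.38 for Lag3, −0.32 for Ikzf2 and −0.41 for Havcr2. That of Icos was 0.48. The sign of the ratios of Lag3, Ikzf2 and Havcr2 thus depends on which transcripts stand below the line. BT3xHuBL mice carry an added T cell receptor, so their constant chain counts may hold RNA of the transgene. The part of such RNA was not tested, and the constant chains are no neutral substitute for CD3.

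**Figure D4:**
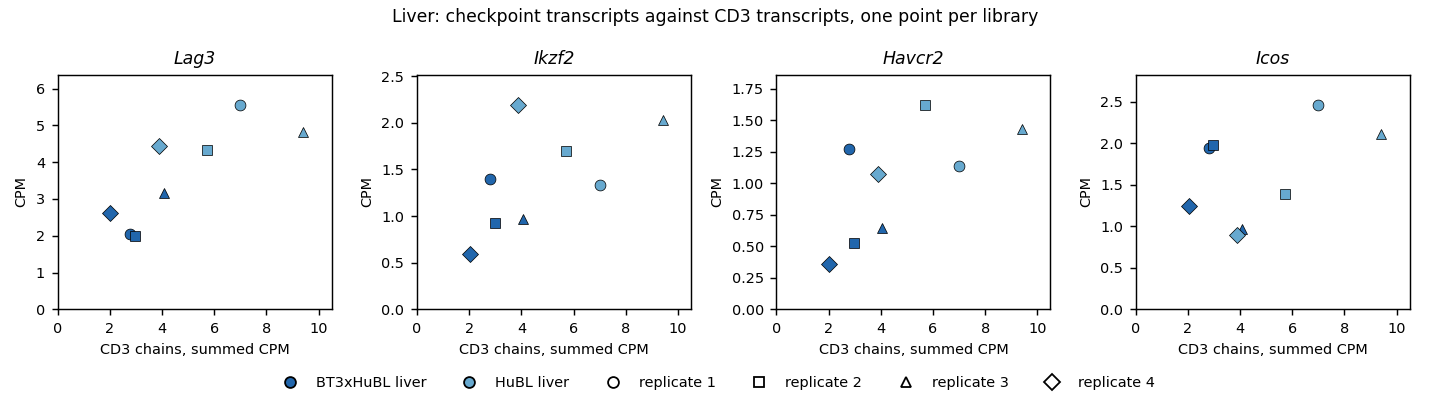
Level of Lag3, Ikzf2, Havcr2 and Icos in each liver (CPM) against the summed CPM of the 4 CD3 chains in the same liver, on linear axes from 0. Dark points are BT3xHuBL and light points HuBL; the BT3xHuBL livers lie to the left, at 2.02 to 4.06 CPM of CD3 against 3.88 to 9.41 CPM in HuBL, and are also lower for Lag3 but not for Icos.

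In the aorta the same ratios put Il2ra, Tigit and Tnfrsf18 lower in BT3xHuBL. Il2ra had 24.0 ± 4.28 per 100 CD3 counts in BT3xHuBL aortas and 36.7 ± 8.40 in HuBL aortas (SD, n = 3 each), Tigit 3.29 ± 1.12 in BT3xHuBL and 5.90 ± 1.17 in HuBL, and Tnfrsf18 5.34 ± 0.784 in BT3xHuBL and 9 ± 2.43 in HuBL. In these 3 cases every BT3xHuBL aorta was below every HuBL aorta, which held for 0.942% of 15396 features set against CD3 in the same way. For Il2ra this separation was narrow. Its nearest libraries were BT3xHuBL replicate 3 at 27.2 and HuBL replicate 2 at 27.5, from 95 and 119 Il2ra counts. A transcript that varies with CD3 has less spread in this ratio than one that does not, so the share of all features is no like-for-like measure. The log2 differences of −0.60, −0.87 and −0.72 each had exact permutation p = 0.1, the smallest possible here, and adjusted p = 0.375 (Benjamini-Hochberg). The other 7 differed by −0.98 (Foxp3) to −0.09 (Ikzf2), with exact permutation p from 0.3 to 1. Against the receptor constant chains the differences were −0.80 for Il2ra, −1.07 for Tigit and −0.93 for Tnfrsf18, and 2 of the 10 stayed apart, Tigit and Tnfrsf18, against 1.16% of features. Il2ra then overlapped, with 60.1 per 100 constant chain counts in BT3xHuBL replicate 3 and 53.6 in HuBL replicate 2. As in liver, RNA of the transgene may be part of the constant chain counts in BT3xHuBL, which was not tested. Summed CD3 was 9.10 ± 3.66 CPM in BT3xHuBL aortas and 8.56 ± 2.51 CPM in HuBL aortas, and the 15 T cell genes had 8 below 0 and a median of −0.04 on the log2 scale.

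Whether the genotype difference was unlike in aorta and liver was tested as an interaction on all 14 libraries, aorta minus liver. Of 8 transcripts tested 0 passed edgeR's quasi-likelihood F-test (Benjamini-Hochberg adjusted), as did 0% of 14912 features; at an unadjusted p of 0.05 there were 3 of the 8, against 8.16% of features. These 3 were Lag3 (0.91, SE 0.35), Ikzf2 (0.88, SE 0.36) and Havcr2 (0.83, SE 0.35), with adjusted p = 0.556, 0.585 and 0.587 in edgeR. DESeq2 called 44 features and none of the 8, and limma-voom called 0 features. The interaction was −0.03 (SE 0.75) for Icos, 0.35 (SE 0.64) for Il2ra and −0.76 (SE 0.66) for Tnfrsf18.

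Between the tissues, TIM-3 and CD25 transcripts were far more abundant in the vessel wall and ICOS transcripts in the liver, while LAG-3 transcripts stood out in HuBL livers. Scaled over all 14 libraries, Havcr2 averaged 29.2 ± 3.93 CPM in BT3xHuBL aortas and 30.2 ± 2.44 CPM in HuBL aortas (SD, n = 3 each), against 0.876 ± 0.492 CPM in BT3xHuBL livers and 1.65 ± 0.317 CPM in HuBL livers (SD, n = 4 each). Il2ra averaged 1.61 ± 0.735 and 2.27 ± 0.721 CPM in the aortas of BT3xHuBL and HuBL, against 0.193 ± 0.0931 and 0.352 ± 0.0593 CPM in their livers. The groups of the tissues did not overlap for either. Aorta over liver log2 fold changes, averaged over the genotypes, were 4.63 (SE 0.16, adjusted p = 1.56e-13) for Havcr2 and 2.85 (SE 0.30, adjusted p = 2.28e-07) for Il2ra in edgeR's quasi-likelihood F-test (Benjamini-Hochberg adjusted).

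**Figure D5:**
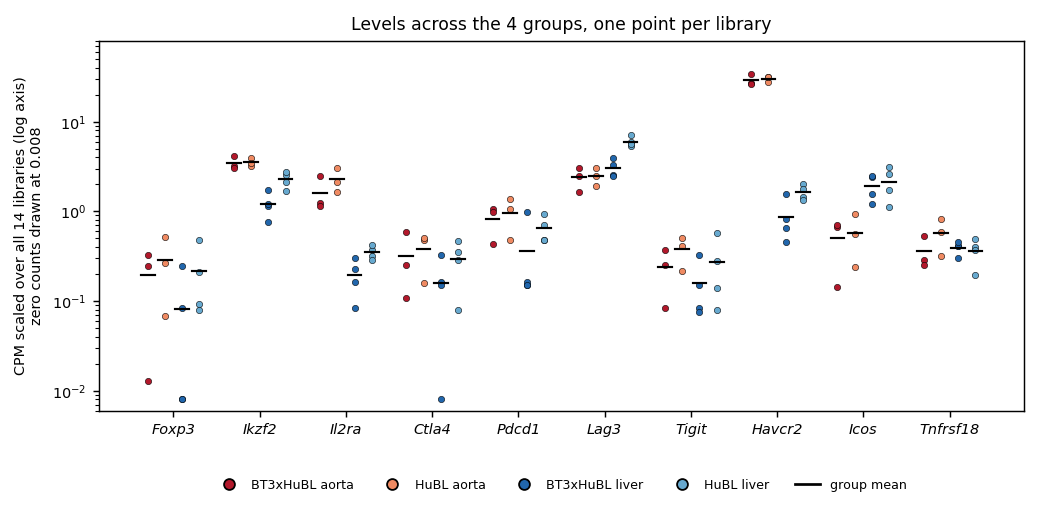
Level of each transcript in each of the 14 libraries, in CPM scaled over all libraries, on a log axis; points are libraries, bars are group means, and counts of 0 are drawn at the bottom of the axis. Every aorta is above every liver for Havcr2, Il2ra and Ikzf2, and below every liver for Icos; for the other 6 the tissues overlap, with Lag3 highest in HuBL livers.

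Ikzf2 was also higher in aorta, with 3.48 ± 0.562 CPM in BT3xHuBL and 3.52 ± 0.338 CPM in HuBL aortas against 1.21 ± 0.401 and 2.27 ± 0.474 CPM in the livers (log2 fold change 1.07, SE 0.18, edgeR adjusted p = 3.69e-05). Icos was lower in aorta, with 0.505 ± 0.312 and 0.577 ± 0.349 CPM in the BT3xHuBL and HuBL aortas against 1.92 ± 0.621 and 2.15 ± 0.885 CPM in the livers (−1.90, SE 0.40, edgeR adjusted p = 0.00033). Lag3 averaged 2.40 ± 0.716 and 2.48 ± 0.570 CPM in the BT3xHuBL and HuBL aortas, and 3.08 ± 0.706 and 6.0 ± 0.720 CPM in the livers, which gave −0.82 (SE 0.18, edgeR adjusted p = 0.000506). Within BT3xHuBL alone the tissues were not apart for Lag3 (−0.36, edgeR adjusted p = 0.196). So of the 4 groups HuBL liver stood above the other 3 for Lag3, and these 3 overlapped.

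In all, 5 of 8 tested transcripts were called between the tissues, 3 higher and 2 lower in aorta, where 88.3% of 14912 features were, 46.2% higher and 42% lower. Pdcd1 (0.89, SE 0.42, adjusted p = 0.0564), Ctla4 (0.67, SE 0.55, adjusted p = 0.262) and Tnfrsf18 (0.24, SE 0.33, adjusted p = 0.491) did not pass in edgeR, and Foxp3 and Tigit were too sparse. Tissue cannot be told apart from depth, and these levels rest on a common scaling. With library totals alone the median of all features was 0.85, against 0.09 with TMM scaling, Lag3 was at −0.05 (edgeR adjusted p = 0.781), and Pdcd1, Ctla4 and Tnfrsf18 passed at 1.65, 1.42 and 1.00.

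None of the tested genes in a list of 14 checkpoint ligands and costimulators passed between the genotypes in edgeR, DESeq2 or limma-voom. MHC class II genes, whose products LAG-3 binds, were not in this list. Of 14 genes for checkpoint ligands and costimulators 12 were tested in aorta, with 6 above and 6 below 0, a median of 0.00 and 0 called by edgeR (1 at an unadjusted p under 0.05); in liver 10 were tested, with 3 above and 7 below, a median of −0.09 and 0 called (1 unadjusted). Cd274, which encodes the PD-1 ligand PD-L1, averaged 8.10 ± 3.1 CPM in BT3xHuBL livers and 14.7 ± 3.60 CPM in HuBL livers, a log2 fold change of −0.85 (SE 0.27, edgeR adjusted p = 0.334), and the groups overlapped. Fgl1, a ligand of LAG-3 secreted by hepatocytes, averaged 1020 ± 813 CPM in BT3xHuBL livers and 529 ± 220 CPM in HuBL livers, with a log2 fold change of 0.95 (SE 0.57, edgeR adjusted p = 0.557). Its BT3xHuBL libraries ran from 449 to 2208 CPM and overlapped those of HuBL. In aorta, Lgals9, which encodes the TIM-3 ligand galectin-9, averaged 74.1 ± 2.94 CPM in BT3xHuBL and 85.8 ± 6.68 CPM in HuBL, and Cd80, a ligand of CTLA-4 and CD28, averaged 8.91 ± 0.431 CPM in BT3xHuBL and 10.8 ± 0.838 CPM in HuBL. All BT3xHuBL aortas were below all HuBL aortas for both, with log2 fold changes of −0.21 (SE 0.08) and −0.28 (SE 0.13) and edgeR adjusted p = 1; such separation in this direction held for 4.9% of features.

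The chains that join CD25 in the interleukin-2 receptor, and the kinases and STAT factors behind it, gave 0 calls of 8 in either tissue (0 unadjusted in aorta, 2 in liver), with medians of −0.05 in aorta and −0.11 in liver; limma-voom also called 0, and DESeq2 called 0 in aorta and 1 in liver. Socs1, a cytokine-induced inhibitor of JAK kinases, averaged 0.811 ± 0.303 CPM in BT3xHuBL livers and 3.43 ± 2.25 CPM in HuBL livers. Every BT3xHuBL liver was below every HuBL liver for Socs1, as held for 3.58% of all features. Its log2 fold change was −2.05 (SE 0.49, edgeR adjusted p = 0.281), and DESeq2 called it (−2.08, adjusted p = 0.00663). Jak3, the kinase bound to the common gamma chain, averaged 16.5 ± 3.88 CPM in BT3xHuBL livers and 12.3 ± 2.18 CPM in HuBL livers (0.43, SE 0.18), and Il2rg, the common gamma chain, gave −0.48 (SE 0.23). In aorta Stat5a, which carries the interleukin-2 signal to the nucleus, gave −0.18 (SE 0.09).

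Of 21 other regulatory T cell genes 17 were tested in aorta, with 8 above and 9 below 0 and a median of −0.00, and 9 in liver, with 6 above and 3 below and a median of 0.04; edgeR called 0 in both (2 unadjusted in each), as did DESeq2 and limma-voom. In aorta Il10, the suppressive cytokine in the title of the study, averaged 0.784 ± 0.234 CPM in BT3xHuBL and 0.210 ± 0.0761 CPM in HuBL. The genotypes did not overlap for Il10, nor for 9.27% of all features in aorta. Its log2 fold change was 1.91 (SE 0.55, edgeR adjusted p = 0.899), on the other side of 0 from Foxp3, Il2ra and Ctla4. Maf, a leucine zipper factor that activates Il10, and Entpd1, the ectoenzyme CD39 of regulatory T cells, were above 0 as well, at 0.25 (SE 0.10) and 0.14 (SE 0.07). Maf averaged 49.0 CPM in BT3xHuBL and 41.3 CPM in HuBL aortas, and Entpd1 229 and 208 CPM. Both lay far above the summed CD3 chains, at 9.10 and 8.56 CPM. The cells that made them were not tested, so they cannot be read as regulatory T cell transcripts here. In liver Ikzf4, a relative of Helios also known as Eos, averaged 1.23 ± 0.676 CPM in BT3xHuBL and 0.575 ± 0.226 CPM in HuBL (1.11, SE 0.45, edgeR adjusted p = 0.41), whereas Ikzf2 was at −0.90. Nt5e, the adenosine-forming enzyme CD73, gave 1.66 (SE 0.68) in liver and −0.22 (SE 0.14) in aorta, and is made by many cells besides regulatory T cells.

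Other costimulatory and inhibitory receptors, 15 genes, were tested for 13 in aorta (4 above and 9 below 0, median −0.14) and for 8 in liver (2 above and 6 below, median −0.19), with 0 called by edgeR, DESeq2 and limma-voom in both (in edgeR 0 unadjusted in aorta, 1 in liver). Tnfrsf4, the costimulatory receptor OX40, averaged 0.960 ± 0.190 CPM in BT3xHuBL aortas and 1.28 ± 0.112 CPM in HuBL aortas without overlap (−0.42, SE 0.34), and gave −0.88 (SE 0.50) in liver. In aorta such separation in this direction held for 4.9% of features. Btla, an inhibitory receptor of lymphocytes, gave −0.57 (SE 0.31) in aorta. Tox, a transcription factor of exhausted T cells, averaged 4.11 ± 0.681 CPM in BT3xHuBL livers and 2.76 ± 0.873 CPM in HuBL livers (0.56, SE 0.24, edgeR adjusted p = 0.425), while Nr4a1, which is switched on by T cell receptor signals and in many other cells, gave −1.03 (SE 0.55). Summed CD3 was 2.96 CPM in BT3xHuBL livers, below Tox, and 6.50 CPM in HuBL livers, above it. The cells that made Tox were not tested, so its level cannot be read as one of exhausted T cells.

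The summed markers of other cell types overlapped between the genotypes in the liver. The 7 natural killer genes summed to 5.68 to 8.86 CPM in BT3xHuBL livers and 7.95 to 8.64 CPM in HuBL livers, and the 9 macrophage and dendritic cell genes to 90.1 to 169 CPM in BT3xHuBL and 110 to 143 CPM in HuBL. The 6 B cell genes summed to 8.19 to 14.2 CPM in BT3xHuBL livers and 8.72 to 17.4 CPM in HuBL livers. All 3 natural killer genes and all 6 B cell genes tested in liver were below 0 (medians −0.24 and −0.33), with 0 at an unadjusted p under 0.05 in edgeR. Of all features tested in liver, 48.2% were below 0 and 11.1% had an unadjusted p under 0.05 in edgeR. The limit of the low-count filter holds for the cell type lists too. Smooth muscle genes gave lower values in liver along with Lag3: 3 of 4 were tested, all 3 were below 0 (median −0.89), 2 had an unadjusted p under 0.05 and 0 passed the adjusted test in edgeR. Their sums averaged 12.3 ± 3.47 CPM in BT3xHuBL livers and 21.0 ± 9.60 CPM in HuBL livers (SD, n = 4 each). HuBL liver replicate 3 held the highest smooth muscle sum (35.4 CPM), T cell sum (43.1 CPM) and CD3 sum (9.41 CPM) of all livers. Without it Lag3 was at −0.95 (edgeR adjusted p = 0.265), and 14 of 15 T cell genes were below 0 (median −0.61), with 5 at an unadjusted p under 0.05. In aorta the B cell genes did not overlap, at 39.3 to 47.6 CPM in BT3xHuBL against 49.8 to 60.7 CPM in HuBL, and all 6 were below 0 (median −0.96). Of these 6 edgeR called 0 (3 unadjusted) and DESeq2 called 2; B cells also carry BTLA. None of the genes in these 4 lists was at 0 throughout a group, and their part in the levels of the receptors was not tested.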

How the data were processed

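Transcripts were counted in 14 libraries of aorta and liver. Per the labels' protocols, a Qiagen RNeasy mini kit was used for RNA and Lexogen QuantSeq V2 for sequencing libraries. The deposited values are counts per feature, not normalized; HTSeq 2.0 and the build GRCm38 are named in the submitters' processing notes, while the sources used here give no aligner, strand setting or annotation. Feature coordinates in the tables are not GRCm38 positions, so positions were taken from GENCODE M21 by symbol. The overlap mark is a suffix of the authors' feature names, carried by 3539 features.

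From these counts, a separate model per tissue was fitted in R 4.3.3 with edgeR 4.0.16 (filterByExpr with a minimum count of 10, TMM scaling, robust quasi-likelihood F-test, two-sided, Benjamini-Hochberg over all features, threshold 0.05). The interaction and the aorta against liver contrast were fitted on all libraries over features passing the same filter there. CPM are the counts over TMM-scaled library sizes. Ratios per CD3 count are log2 with 0.5 added to both counts, for genes with a mean of at least 5 counts in the tissue, compared by exact permutation (SciPy 1.17.1). Libraries of a group differed by more than sampling noise (chi-square over degrees of freedom 12.2 to 75.7). Floors of 3 counts cover counting error only. As alternatives, DESeq2 1.42.0, limma-voom (3.58.1), other scalings and low-count filters, no robust weights, a fit of all libraries, the replicate number as a block, single genotypes, other ratios, and each library left out were run. On simulated counts edgeR recovered 64%, 76% and 56% of 50 features changed 2-fold in the aorta, liver and interaction designs, with 14 of 154, 12 of 158 and 4 of 122 calls false. The changed features were drawn at random from all tested features. These rates therefore do not give the chance of finding a change in the sparse genes followed here. Plots used matplotlib 3.10.9.

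Genes named are the 10 set out at the start and, from the gene lists, those called or else up to 4 per list and tissue of smallest p (Cd4 and Cd3d were named after their values were seen). The 10 genes and all lists were chosen with earlier results of these data known.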

Additional observations from a re-analysis of the deposited data

Results flagged for a closer look

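Of 48 sums and levels examined in groups of 4 livers, 20 of them levels of the 10 genes, 3 had a library far from the others of its group; about 1 in 20 is flagged by chance. Pdcd1 reached 0.774 CPM in BT3xHuBL liver replicate 3, where the next library had 0.132 CPM. That library also held the highest summed CD3 of its group, 4.06 CPM. The summed smooth muscle genes reached 35.4 CPM in 1 HuBL liver, where the next had 17.7 CPM, and the summed hepatocyte genes reached 135390 CPM in 1 HuBL liver, where the next had 113338 CPM. No explanation of these values was tested.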

How the results depend on the processing

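In the aorta 0 of the genes tested were called under every alternative run (10 tested, but 5 with a mean of at least 1 CPM required and 8 in the fit of all 14 libraries), and the direction of 3 (Il2ra, Tigit and Tnfrsf18) held with each library left out. With a library left out the others ran from −1.12 to 0.24 (Foxp3), −0.17 to 0.05 (Ikzf2), −1.06 to 0.13 (Ctla4), −0.56 to 0.10 (Pdcd1), −0.28 to 0.15 (Lag3), −0.17 to 0.00 (Havcr2) and −0.57 to 0.36 (Icos); Il2rb ran from −0.19 to 0.41 and Cd96 from −0.18 to 1.24. The number of all features called was 4, and 68 with DESeq2, 9 with no low-count filter and 0 to 27 with a library left out. In liver the call count among the 4 was 0, and 1 with DESeq2 (Lag3); all features called were 0, and 133 with DESeq2, 5 from a fit of all 14 libraries and 0 to 5 with a library left out, and Icos ran from −0.38 to 0.09. The interaction had 0 features called, 44 with DESeq2 and 0 to 3 with a library left out, where Il2ra ran from −0.08 to 0.65, Ctla4 from −0.15 to 1.21 and Icos from −0.41 to 0.53.

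Same-numbered libraries of the genotypes deviated with correlations of −0.06 to 0.16, and 2 of 6 aortas and 3 of 8 livers correlated best with their own number. No pairing by number was seen, but so few libraries a group cannot exclude one. As a replicate block the number gave 14 features called in aorta and 10 in liver, against 4 and 0 without it. None of the 10 genes was called with the block in either tissue. Between aorta and liver 5 genes were called, and 5 to 6 with a library left out; Tnfrsf18 was at −0.14 within BT3xHuBL alone.

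Per CD3 count the liver ratio of Pdcd1 was 0.02 with 1 added in place of 0.5, and with receptor constant chains those of Ikzf2, Lag3 and Havcr2 were −0.32, −0.38 and −0.41. With a library left out, ratios in aorta ran from −2.03 to 0.61 (Foxp3), −0.32 to 0.25 (Ikzf2), −0.63 to 0.29 (Lag3), −0.36 to 0.22 (Havcr2) and −0.72 to 0.08 (Icos), and in liver from −0.02 to 0.50 (Ikzf2), −0.52 to 0.18 (Pdcd1), −0.08 to 0.31 (Lag3) and −0.25 to 0.25 (Havcr2). The cause of these changes was not tested. Liver depth limits Foxp3, Ctla4, Tigit, Il2ra, Pdcd1 and Tnfrsf18, at 0 to 12 counts a library.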

Other observations

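Likeness to the 10 genes as a sum was described over the 14 libraries, as Pearson's r of log2 CPM centred within tissue, for 13373 features. The summed level was 52.7 ± 5.69 CPM in BT3xHuBL aortas and 56.5 ± 5.36 CPM in HuBL aortas (SD, n = 3 each), and 6.74 ± 0.927 CPM in BT3xHuBL livers and 11.3 ± 0.858 CPM in HuBL livers (SD, n = 4 each). Havcr2 made up 74.6% and 72.5% of the sum in the aortas, and Lag3 36.5% and 42.2% in the livers, so the sum follows different genes in each tissue. Closest were Ptpn22 (r 0.93), a phosphatase that restrains T cell receptor signalling, Pycard (0.90), the inflammasome adaptor ASC, C1d (0.89), Ube2l3 (0.88), a ubiquitin-conjugating enzyme, and Cxcl10 (0.87), a chemokine that attracts activated T cells. Their likeness came mostly from the liver, where r was 0.93 to 0.97 over 8 libraries, while over 6 aortas it was 0.05 to 0.58. The liver values hold the genotype difference as well as the spread within genotypes, and all values share scaling and library.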
